A study of Homo sapiens with 6 samples.

Results

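The mitochondrial protein import machinery was taken as 40 nuclear genes named by symbol, out of 63241 genes measured in HT-29 cells. They were sorted by where their products work, with 13 genes of the outer membrane, 8 of the intermembrane space, 14 of the inner membrane and its import motor, and 5 of precursor processing. HT-29 is an established human colorectal adenocarcinoma line, labelled wild type. In 3 RNA-seq libraries (A904 in the labels) the cells received 0.5 µM Amuc_0904, a recombinant protein of the gut bacterium *Akkermansia muciniphila*, for 72 h, and in 3 Control libraries they received buffer for the same time. The comparison asked how expression changed in the epithelial cells after Amuc_0904. No source says whether replicates came from independent cultures, so the p values speak only of the spread among these libraries.

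Nearly all mitochondrial proteins are made in the cytosol and must cross the mitochondrial membranes unfolded. Precursors enter through the TOM complex of the outer membrane, β-barrel proteins are then inserted by the SAM complex, small TIM chaperones escort hydrophobic proteins through the intermembrane space, and the disulfide relay traps cysteine-rich ones there. Proteins with a cleavable presequence pass the TIM23 channel and are pulled into the matrix by an ATP-driven motor, carriers are inserted by the TIM22 complex, and peptidases remove the targeting signals.

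Expression is given as TPM, which corrects for gene length and is a share of each library's transcripts, so a change in the total RNA of the cells cannot be seen, and fewer cells of a type cannot be told apart from less RNA per cell. Differences are Amuc_0904 minus Control on the log2(TPM + 1) scale, and adjusted p values come from limma-trend over 14333 genes, those that reached 1 TPM in 3 or more libraries. A gene is said to pass the test at an adjusted p under 0.05. The deposited values hold no counts, so the depth of the libraries and the counting error are unknown.

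Amuc_0904 replicate 1 lay apart from the other treated libraries. On the first principal component, with 35.5% of the variance, it sat at −4.79, Amuc_0904 replicates 2 and 3 at 20.4 and 22.8, and the Control libraries between −13.0 and −12.4. Transcripts of the mitochondrial genome made up 13.0%, 10.6% and 11.1% of TPM in Amuc_0904 replicates 1 to 3, against 12.8% to 13.5% in the Control libraries. Of 8 epithelial markers, 7 averaged above 1 TPM, with summed levels of 6200 to 6966 TPM in Amuc_0904 libraries and 6230 to 6260 TPM in Control libraries. *KRT8* and *KRT18* carried most of that sum, and *KRT8* had 2766, 3227 and 3291 TPM in Amuc_0904 replicates 1 to 3, against 2682 to 2785 TPM in the Control libraries. *EPCAM* had 621.3, 546.1 and 545.8 TPM in Amuc_0904 replicates 1 to 3, against 584.5 to 602.6 TPM in the Control libraries, and *CDH1* had 95.1, 72.3 and 75.6 TPM in Amuc_0904 replicates 1 to 3, against 87.1 to 95.2 TPM in the Control libraries. Both were thus below all controls in replicates 2 and 3. The labels call the cells enterocytes, yet 5 of 11 enterocyte markers averaged above 1 TPM, and *CA1*, *AQP8* and *FABP2* were listed at 0 in all 6 libraries. The enterocyte markers summed to 318.3 to 353.7 TPM in Amuc_0904 libraries and 287.5 to 302.8 TPM in Control libraries, without overlap. *FABP1*, *KRT20* and *CA2* carried that sum, and in each of them alone the groups overlapped. Of the 6 immune markers, 3 averaged above 1 TPM. *CD3E* was listed at 0 and *PTPRC* reached at most 0.02 TPM, while lysozyme (*LYZ*) carried the list's sum of 2489 to 2709 TPM in Amuc_0904 libraries and 2592 to 2636 TPM in Control libraries. *CD68*, a macrophage marker, had 8.13 to 12.01 TPM in Amuc_0904 libraries and 8.90 to 13.79 TPM in Control libraries, with overlapping groups. *CD14*, a monocyte marker of that list, had 2.79, 1.89 and 2.85 TPM in Amuc_0904 replicates 1 to 3, against 4.74, 4.76 and 4.65 TPM in Control replicates 1 to 3, all treated libraries below all controls. The 6 stromal and endothelial markers summed to 1.99 to 2.72 TPM in Amuc_0904 libraries and 1.57 to 2.50 TPM in Control libraries, with *COL1A2* listed at 0. Of these, 2 averaged above 1 TPM, *COL1A1* at 1.19 and *PECAM1* at 1.08 TPM over the 6 libraries. With TPM rescaled without the mitochondrial transcripts, a scaling added with the values already known, the median difference of the import genes described below was 0.11, against 0.14 as deposited. The part of the marker levels in the results was not tested.

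All 40 import genes were found, and 39 passed the filter on low values. *DNAJC15*, a J-domain protein linked to the import motor, was listed at 0.33, 0.33 and 0.59 TPM in Amuc_0904 replicates 1 to 3 and at 0.29, 0.33 and 0.43 TPM in Control replicates 1 to 3, and was not tested. The machinery as a whole took 2802, 3119 and 3120 TPM in Amuc_0904 replicates 1 to 3, against 2752, 2756 and 2774 TPM in Control replicates 1 to 3. In TPM as deposited, every treated library was above every Control library in this sum, and the mean was 9.17% higher. Replicate 1 was the nearest to the controls. Median-of-ratios scaling, an alternative used below, divides replicate 1 by 1.042 and the Control libraries by 0.9934 to 1.003. Under it the sum of replicate 1 lay below every Control library.

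Levels spread widely within each compartment. *TOMM7*, a small subunit of the TOM complex, was the highest, at 774.6 ± 14.9 TPM with Amuc_0904 and 809.0 ± 10.8 TPM in Control (SD, n = 3 each). *TOMM6*, another small subunit, followed at 298.0 ± 37.1 TPM with Amuc_0904 and 236.0 ± 3.81 TPM in Control. *TOMM20*, the main presequence receptor, averaged 145.0 ± 3.69 TPM with Amuc_0904 and 140.5 ± 1.92 TPM in Control, and *TOMM5* averaged 161 ± 22.9 TPM with Amuc_0904 and 124 ± 6.24 TPM in Control. All Control libraries thus had more *TOMM20* than *TOMM5* transcripts per length, and Amuc_0904 replicates 2 and 3 had more *TOMM5*. The lowest tested genes were *TOMM40L*, *MTX3* and *TIMM22*, with means of 5.15, 5.18 and 5.90 TPM in Amuc_0904 cells and 5.46, 5.61 and 5.02 TPM in Control cells, levels whose ranges over the libraries overlap one another. In the intermembrane space *TIMM8B* was the highest and *GFER* the lowest, in the inner membrane *TIMM23* the highest and *DNAJC15* the lowest, and among the processing enzymes *PMPCB* the highest and *IMMP2L* the lowest.

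**Figure D1:**
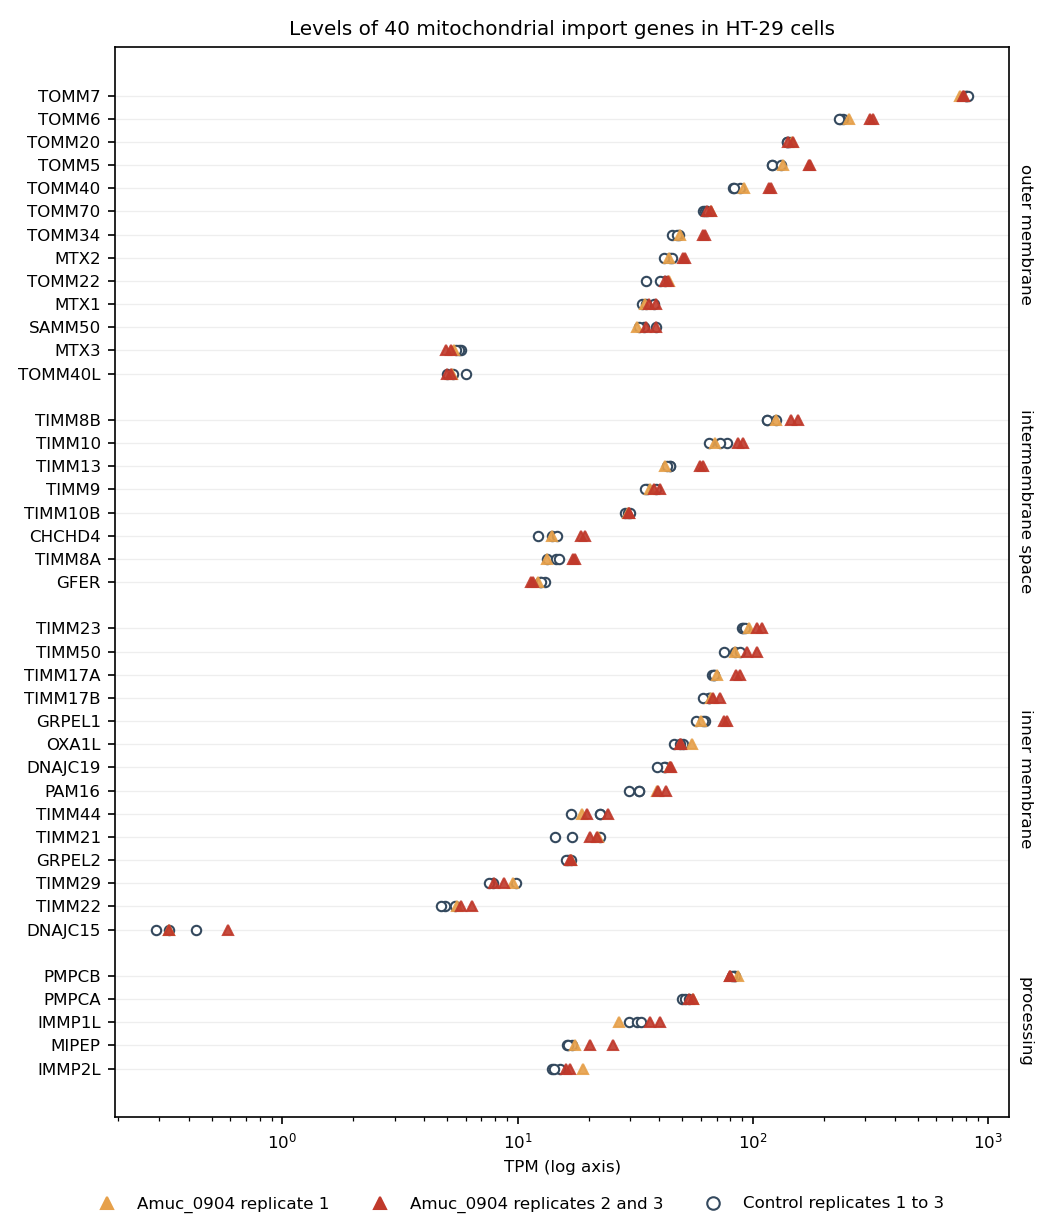
Level of each of the 40 import genes in TPM on a log axis, 1 row per gene within its compartment (triangles, Amuc_0904 libraries, with replicate 1 in orange; circles, Control libraries). *TOMM7* sits near 774.6 TPM with Amuc_0904 and 809.0 TPM in Control, and *DNAJC15* lies below 1 TPM in every library.

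Most of the import genes were slightly higher with Amuc_0904, and none passed the test. Of the 39 tested, 34 had a higher mean and 5 a lower one, where 50.4% of all tested genes had a higher and 49.6% a lower mean. The median log2 difference of the import genes was 0.14, against 0.00 (0.0015) over all tested genes. At the adjusted p, 0 were called higher and 0 lower, where 0.0698% of all tested genes were called higher and 0.167% lower. Before adjustment, at a limma p under 0.05, 11 were higher and 0 lower, where 9.95% of all tested genes were higher and 5.87% lower. With median-of-ratios scaling these figures were 7 higher and 0 lower, where 7.08% of all tested genes were higher and 7.56% lower, and with quantile scaling 7 and 1, where 7.64% were higher and 7.69% lower. The 3 Amuc_0904 libraries all lay above the 3 Control libraries for 15 import genes and all below for 3, where the shares over all tested genes were 13.4% and 7.59%. With median-of-ratios scaling 6 lay all above and 2 all below, where the shares were 9.22% and 10.7%, and with quantile scaling 7 and 2, where they were 10.8% and 9.97%. Under median-of-ratios scaling the 6 were *TOMM40*, *TOMM22*, *TOMM6*, *PAM16*, *DNAJC19* and *IMMP2L*, and the 2 were *MTX3* and *GFER*. Where groups of a gene are said below not to overlap, TPM as deposited is meant. With TPM rescaled without mitochondrial transcripts, 11 were higher and 1 lower at the unadjusted p, where 7.64% of all tested genes were higher and 6.82% lower.

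The number of import genes past the test depended on Amuc_0904 replicate 1. Their median difference was 0.17 without replicate 1 and 0.11 without replicate 2 or replicate 3. Relative to the Control mean, the median of the import genes was 0.05, 0.19 and 0.15 on the log2 scale in Amuc_0904 replicates 1 to 3, while the median of all tested genes was 0.05, −0.02 and −0.03 in the same libraries. In replicate 1 the import genes thus sat where all genes sat, and in replicates 2 and 3 they sat above them. Replicate 1 was above all controls for 18 import genes, within their range for 15 and below it for 6, where the shares over all tested genes were 42.1%, 41.9% and 16.0%. Replicates 2 and 3 were both above all controls for 24 import genes, where 22.8% of all tested genes were. Without replicate 1, 16 import genes passed the adjusted p, all higher, where 9.51% of all tested genes passed higher and 9.24% lower. With libraries weighted by their scatter, which gave replicate 1 a weight of 0.224, 13 passed, all higher, where 9.17% of all tested genes passed higher and 7.37% lower. At the unadjusted p, 20 were higher without replicate 1 (15.9% of all tested genes higher, 18.4% lower) and 21 with the weights (16.4% and 17.2%). When replicate 2 or replicate 3 was left out instead, 5 were higher each time, where 5.67% and 5.4% of all tested genes were higher and 3.24% and 3.11% lower. Without Control replicate 1, 2 or 3 the counts were 7, 6 and 7, where 6.58%, 6.19% and 6.22% of all tested genes were higher and 3.42%, 3.54% and 4.06% lower. All adjusted p values given below as without replicate 1 come from 2 Amuc_0904 and 3 Control libraries. Where replicate 1 is the treated library nearest to the controls, leaving it out raises the difference and narrows the treated spread. These p values are therefore no independent support for a difference. With replicate 2 or replicate 3 left out instead, 0 import genes passed the adjusted p.

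**Figure D2:**
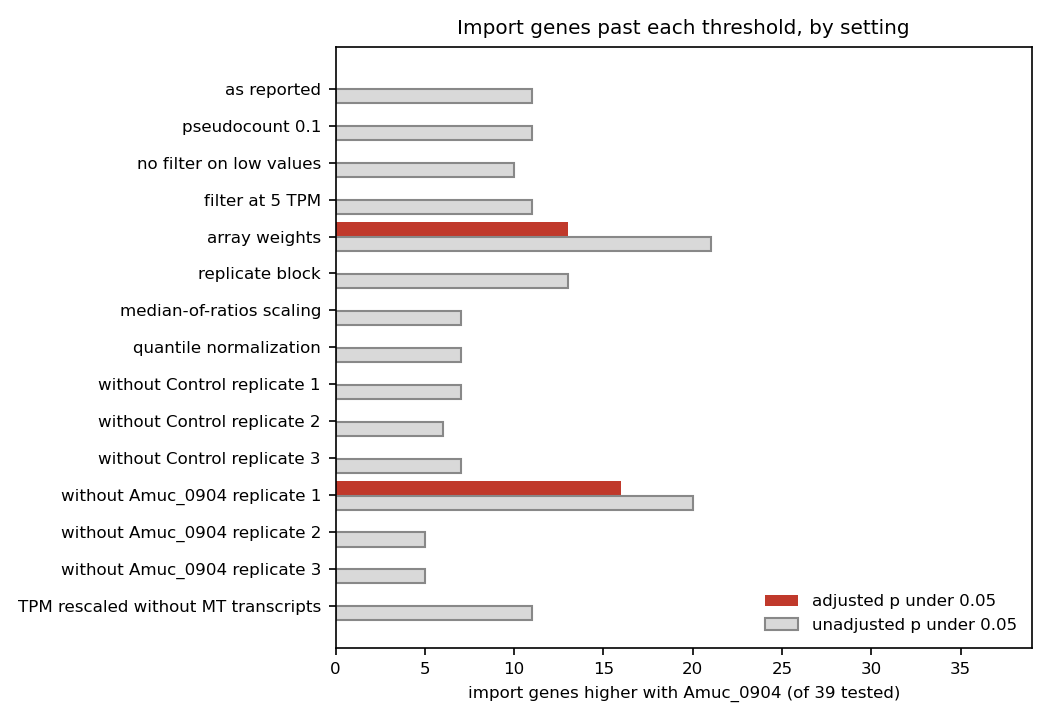
Number of the 39 tested import genes higher with Amuc_0904 at an adjusted p under 0.05 (red) and at an unadjusted p under 0.05 (grey), as reported and under each of the other settings. The adjusted count is 16 without Amuc_0904 replicate 1, 13 with array weights and 0 elsewhere.

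**Figure D3:**
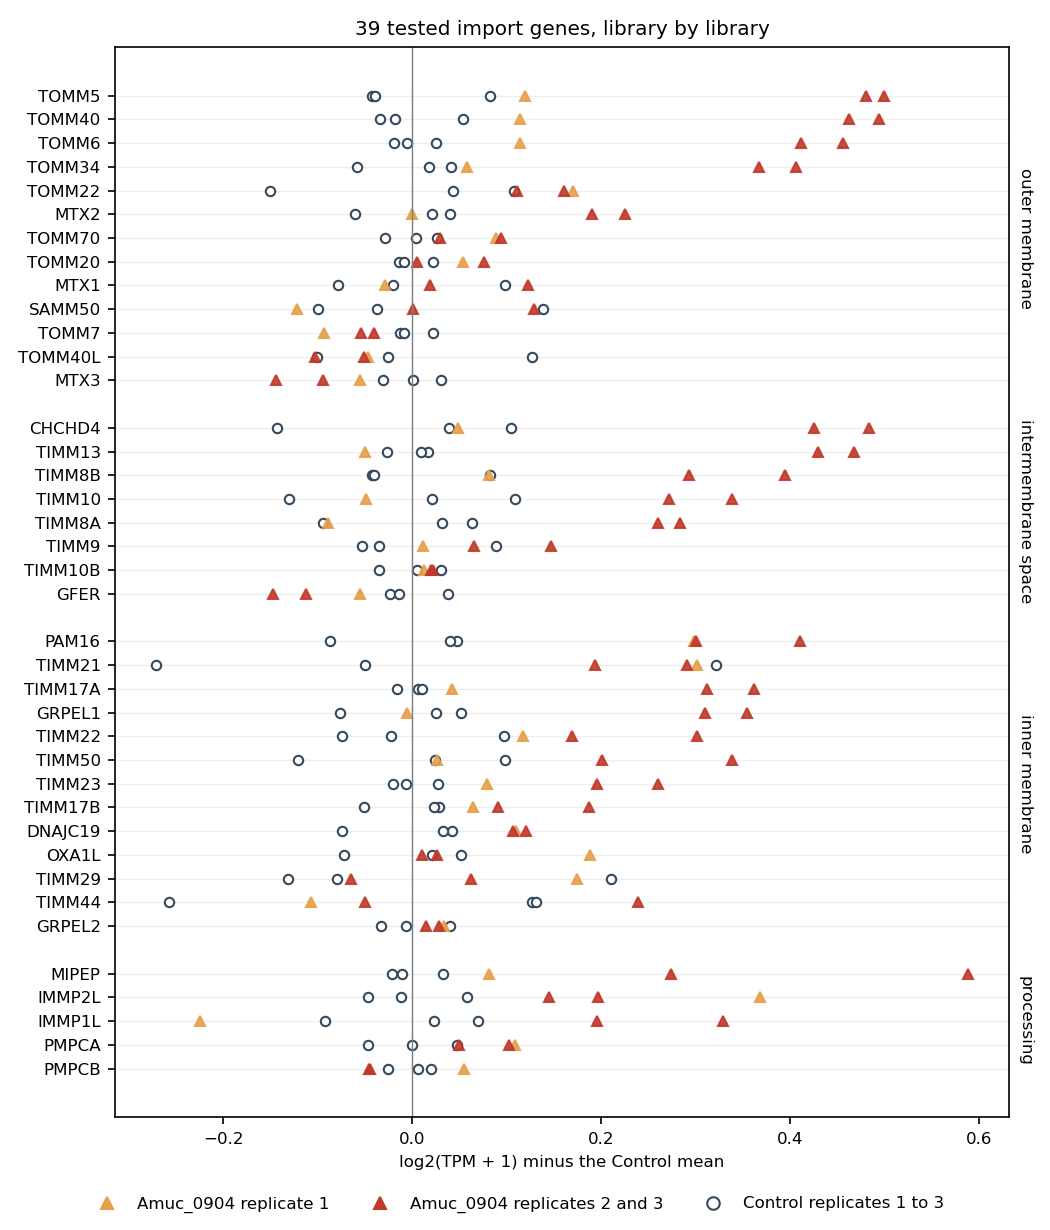
Each of the 39 tested import genes in each library as log2(TPM + 1) minus the mean of the Control libraries, ordered within compartments by the difference between groups (triangles, Amuc_0904, replicate 1 in orange; circles, Control). Amuc_0904 replicates 2 and 3 lie right of all controls for 24 genes and replicate 1 does so for 18.

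The 13 outer membrane genes had differences of either sign, also among genes of the same role. Their median difference was 0.07, and 4 were higher at the unadjusted p, namely *TOMM40*, *TOMM5*, *TOMM6* and *TOMM34*, where 9.95% of all tested genes were higher. *TOMM40*, the β-barrel pore through which almost all precursors pass, had 91.4, 117 and 119 TPM in Amuc_0904 replicates 1 to 3, against 87.6, 82.4 and 83.3 TPM in Control replicates 1 to 3. The groups did not overlap, and replicate 1 was the treated library nearest to the controls. The difference was 0.36 (SE 0.101, adjusted p = 0.238), and 0.48 without replicate 1 (adjusted p = 0.00166).

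*TOMM5*, a small subunit at the pore, had 134, 175 and 173 TPM in Amuc_0904 replicates 1 to 3, against 119.9, 120.2 and 131 TPM in Control replicates 1 to 3 (difference 0.37, SE 0.105, adjusted p = 0.238, and 0.49 without replicate 1, adjusted p = 0.00222). *TOMM6*, on chromosome 6 from 41787662 to 41789898, had 256, 314 and 324 TPM in Amuc_0904 replicates 1 to 3, against 240.2, 235 and 233 TPM in Control replicates 1 to 3 (difference 0.33, SE 0.0895, adjusted p = 0.234, and 0.43 without replicate 1, adjusted p = 8.96e-04). In both genes replicate 1 lay just above the controls and replicates 2 and 3 well above them. *TOMM6* overlaps the protein-coding gene *AL365205.1*, at 34.5 TPM on average, on the same strand. *TOMM7*, the small subunit that in yeast counteracts TOM assembly, was lower in every treated library, with 758, 779 and 787 TPM in Amuc_0904 replicates 1 to 3, against 802, 804 and 821 TPM in Control replicates 1 to 3. In TPM as deposited the groups did not overlap, and with median-of-ratios scaling they did. The difference was −0.06 (SE 0.0405, adjusted p = 0.483), and its sign held in every alternative run. With quantile scaling the difference was −0.14 and with TPM rescaled without mitochondrial transcripts −0.09, and in both *TOMM7* was the 1 import gene called lower at the unadjusted p. Without *TOMM7* the machinery summed to 2044, 2340 and 2334 TPM in Amuc_0904 replicates 1 to 3, against 1950, 1952 and 1953 TPM in Control replicates 1 to 3, and the mean was 14.7% higher. Under median-of-ratios scaling this sum of replicate 1 lay within the range of the controls.

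*TOMM34*, a cytosolic co-chaperone that binds precursors together with Hsp70 and Hsp90, had 49.1, 62.8 and 61.1 TPM in Amuc_0904 replicates 1 to 3, against 48.5, 45.2 and 47.7 TPM in Control replicates 1 to 3. Replicate 1 exceeded the highest control by less than the controls differed among themselves. The difference was 0.28 (SE 0.0957, adjusted p = 0.264), and 0.39 without replicate 1 (adjusted p = 0.0042). *TOMM34* overlaps *PABPC1L*, at 63.9 TPM on average, on the opposite strand. The 3 receptors had differences of 0.04 for *TOMM20*, 0.15 for *TOMM22*, the central receptor, and 0.07 for *TOMM70*, the receptor of carrier precursors (adjusted p = 0.648, 0.386 and 0.497). *TOMM22* had 44.0, 43.7 and 42.2 TPM in Amuc_0904 replicates 1 to 3, against 42.1, 35.0 and 40.2 TPM in Control replicates 1 to 3, and its difference was 0.07 without Control replicate 2. In *TOMM22* and *TOMM70* all treated libraries were above all controls.

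In the SAM complex, the insertase *SAMM50* was at 35.3 ± 3.15 TPM with Amuc_0904 and 35.3 ± 3.15 TPM in Control, and its partner metaxins had differences of either sign. *MTX2* had 43.9, 51.5 and 50.2 TPM in Amuc_0904 replicates 1 to 3, against 44.5, 45.1 and 42.0 TPM in Control replicates 1 to 3, a difference of 0.14 (adjusted p = 0.397) that was 0.21 without replicate 1 (adjusted p = 0.031). *MTX1* had 34.8, 36.0 and 38.8 TPM in Amuc_0904 replicates 1 to 3, against 38.1, 33.6 and 35.0 TPM in Control replicates 1 to 3, and the groups overlapped (difference 0.04, adjusted p = 0.822). *MTX3* had 5.36, 5.19 and 4.98 TPM in Amuc_0904 replicates 1 to 3, against 5.75, 5.61 and 5.47 TPM in Control replicates 1 to 3. All treated libraries were below all controls, with a difference of −0.10 (SE 0.0816, adjusted p = 0.586).

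**Figure D4:**
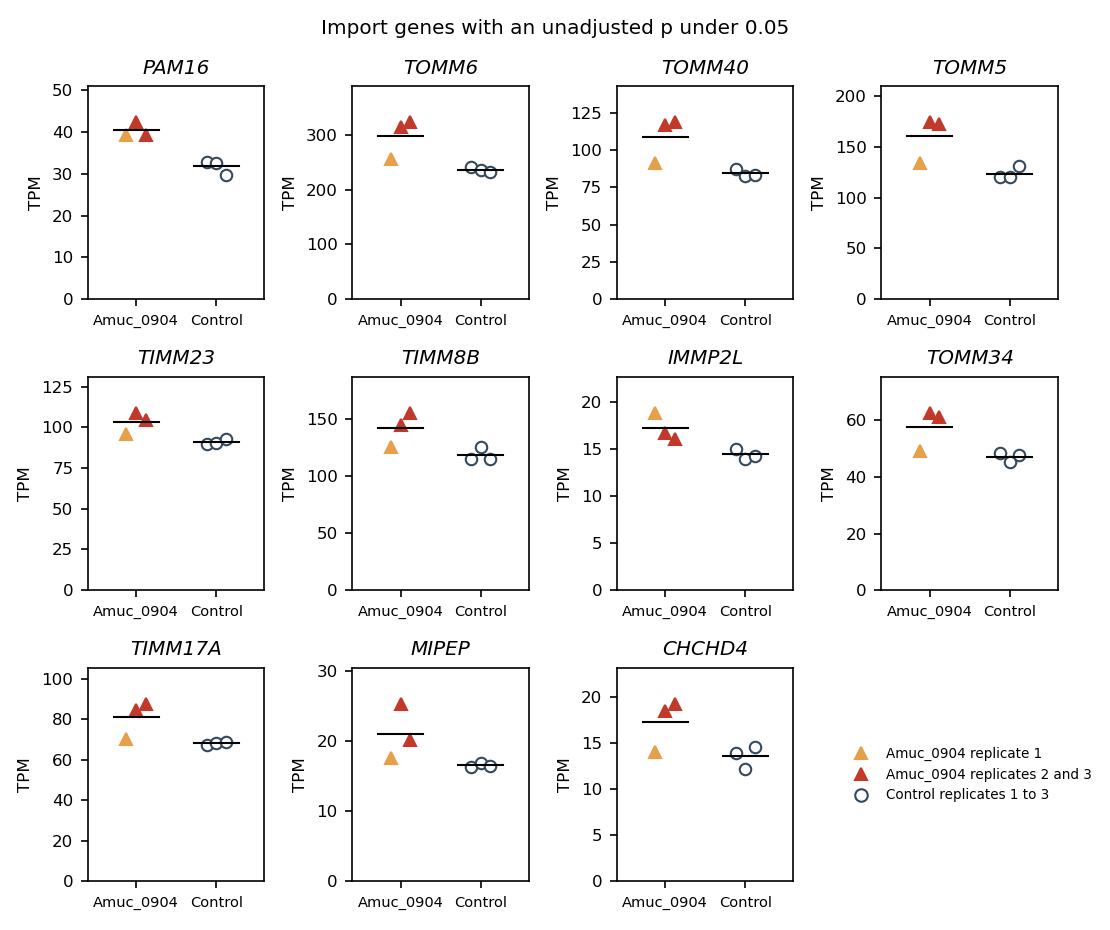
TPM in each library of the 11 import genes with an unadjusted p under 0.05 (triangles, Amuc_0904, replicate 1 in orange; circles, Control; bars, group means; each axis starts at 0). Groups do not overlap for 9 of them, while in *TIMM8B* and *CHCHD4* Amuc_0904 replicate 1 falls within the control range.

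The 8 genes of the intermembrane space showed the widest split between treated libraries of the 4 compartments. Their median relative to the Control mean was −0.02 in Amuc_0904 replicate 1 and 0.28 in each of replicates 2 and 3. No gene of this compartment had all treated libraries above the controls, yet 5 passed the adjusted p higher without replicate 1, where 9.51% of all tested genes passed higher and 9.24% lower. *TIMM13*, a small chaperone that works in a ring with *TIMM8A*, had 42.4, 61.1 and 59.5 TPM in Amuc_0904 replicates 1 to 3, against 44.5, 44.2 and 43.1 TPM in Control replicates 1 to 3. Replicate 1 was below every control and replicates 2 and 3 above every control. The difference was 0.28 (SE 0.132, adjusted p = 0.352), and 0.45 without replicate 1 (adjusted p = 0.00197). *TIMM13* overlaps *LMNB2* on the same strand, a gene at 74.2 TPM on average over the 6 libraries, and the sources do not state how shared reads were divided.

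*TIMM8B*, a homologue of *TIMM8A*, had 125.2, 145 and 156 TPM in Amuc_0904 replicates 1 to 3, against 115, 125.3 and 115 TPM in Control replicates 1 to 3 (difference 0.26, SE 0.0853, adjusted p = 0.258, and 0.34 without replicate 1, adjusted p = 0.00931). It overlaps *SDHD*, at 205 TPM, on the opposite strand. *TIMM8A* had 13.3, 17.2 and 17.5 TPM in Amuc_0904 replicates 1 to 3, against 13.3, 14.6 and 14.9 TPM in Control replicates 1 to 3, with a difference of 0.15 (adjusted p = 0.542) that was 0.27 without replicate 1 (adjusted p = 0.0426). The small chaperones of the carrier route, *TIMM10*, *TIMM9* and *TIMM10B*, differed in the size of their differences. *TIMM10* had 69.1, 90.7 and 86.6 TPM in Amuc_0904 replicates 1 to 3, against 77.2, 72.6 and 65.3 TPM in Control replicates 1 to 3 (difference 0.19, adjusted p = 0.446, and 0.30 without replicate 1, adjusted p = 0.035), whereas the differences of *TIMM9* and *TIMM10B* were 0.07 and 0.02 (adjusted p = 0.599 and 0.891).

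The disulfide relay consists of the oxidoreductase *CHCHD4* and the sulfhydryl oxidase *GFER* that reoxidizes it. *CHCHD4*, on chromosome 3 from 14112077 to 14124870, had 14.03, 18.5 and 19.3 TPM in Amuc_0904 replicates 1 to 3, against 13.9, 12.2 and 14.6 TPM in Control replicates 1 to 3. Replicate 1 lay within the control range and replicates 2 and 3 above it (difference 0.32, SE 0.129, adjusted p = 0.302, and 0.45 without replicate 1, adjusted p = 0.0176). *GFER* had 12.2, 11.3 and 11.6 TPM in Amuc_0904 replicates 1 to 3, against 13.0, 12.4 and 12.5 TPM in Control replicates 1 to 3, all treated libraries below all controls, with a difference of −0.11 (SE 0.0653, adjusted p = 0.464). The ratio of *CHCHD4* to *GFER* was 1.15, 1.63 and 1.66 in Amuc_0904 replicates 1 to 3, against 1.07, 0.977 and 1.17 in Control replicates 1 to 3, and replicate 1 fell within the range of the controls.

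All 13 tested genes of the inner membrane and motor had a higher mean with Amuc_0904, with a median difference of 0.18. Of these, 3 were higher at the unadjusted p (9.95% of all tested genes), and 6 had all treated libraries above all controls (13.4% of all tested genes). *PAM16*, the motor subunit that binds and regulates the J-protein *DNAJC19*, had the smallest p of the 39 genes. Its level was 39.3, 42.5 and 39.3 TPM in Amuc_0904 replicates 1 to 3, against 32.8, 32.7 and 29.8 TPM in Control replicates 1 to 3. The 3 treated libraries lay close together and above all controls, replicate 1 included. The difference was 0.34 (SE 0.0632, adjusted p = 0.15), and 0.36 without replicate 1 (adjusted p = 0.0147). *PAM16* lies on chromosome 16 from 4331549 to 4355607 and overlaps *CORO7* on the same strand, at 6.21 TPM on average, and a read-through transcript of both genes at 0.207 TPM.

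*TIMM23*, the channel for presequence proteins, had 96.2, 109 and 104 TPM in Amuc_0904 replicates 1 to 3, against 89.7, 90.6 and 92.7 TPM in Control replicates 1 to 3 (difference 0.18, SE 0.0579, adjusted p = 0.254, and 0.23 without replicate 1, adjusted p = 0.0105). Its near copy *TIMM23B* was counted separately, at 5.68 TPM, and reads of the pair could have been divided either way. *TIMM17A*, which builds the channel with *TIMM23*, had 70.0, 84.7 and 87.7 TPM in Amuc_0904 replicates 1 to 3, against 67.2, 68.3 and 68.5 TPM in Control replicates 1 to 3. In TPM as deposited both genes had all treated libraries above all controls, with replicate 1 the nearest to them. With median-of-ratios scaling neither gene did. The difference of *TIMM17A* was 0.24 (SE 0.0855, adjusted p = 0.273), and 0.34 without replicate 1 (adjusted p = 0.00308).

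The other channel subunits had smaller or more scattered differences. *TIMM17B*, the paralog of *TIMM17A*, had 66.6, 72.6 and 67.8 TPM in Amuc_0904 replicates 1 to 3, against 64.9, 64.7 and 61.4 TPM in Control replicates 1 to 3 (difference 0.11, adjusted p = 0.36). *TIMM50*, the presequence receptor of the channel, and *TIMM21*, which tethers it to TOM, differed by 0.19 and 0.26, and their groups overlapped (adjusted p = 0.371 and 0.411). The ratio of *TIMM17A* to *TIMM17B* was 1.05, 1.17 and 1.29 in Amuc_0904 replicates 1 to 3, against 1.04, 1.06 and 1.12 in Control replicates 1 to 3, so the groups overlapped in it.

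In the motor, *GRPEL1*, the nucleotide exchange factor of mitochondrial Hsp70, had 60.3, 77.6 and 75.2 TPM in Amuc_0904 replicates 1 to 3, against 57.3, 62.7 and 61.6 TPM in Control replicates 1 to 3. Replicate 1 fell within the control range (difference 0.22, SE 0.0988, adjusted p = 0.336, and 0.33 without replicate 1, adjusted p = 0.00866). Its paralog *GRPEL2* had 16.9, 16.8 and 16.6 TPM in Amuc_0904 replicates 1 to 3, against 16.4, 16.9 and 16.0 TPM in Control replicates 1 to 3, a difference of 0.03 (adjusted p = 0.862). *DNAJC19*, the J-protein that stimulates the motor, had 44.4, 44.8 and 44.3 TPM in Amuc_0904 replicates 1 to 3, against 42.3, 42.0 and 38.97 TPM in Control replicates 1 to 3, with all treated libraries above all controls (difference 0.11, adjusted p = 0.357). *TIMM44*, which anchors the motor to the channel, differed by 0.03 (adjusted p = 0.94), and its sign changed when Control replicate 2 or Amuc_0904 replicate 2 was left out.

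No gene of the carrier translocase or the insertase had an unadjusted p under 0.05. *TIMM22*, the channel of the carrier route, had 5.52, 5.76 and 6.41 TPM in Amuc_0904 replicates 1 to 3, against 4.92, 4.71 and 5.43 TPM in Control replicates 1 to 3, all treated libraries above all controls by a narrow margin (difference 0.20, SE 0.0958, adjusted p = 0.371). *TIMM22* overlaps *ABR*, at 55.7 TPM, on the opposite strand. *TIMM29*, a subunit of the same complex, and *OXA1L*, which inserts proteins from the matrix side, differed by 0.06 and 0.07 (adjusted p = 0.842 and 0.617). For *OXA1L*, replicate 1 was the treated library that exceeded the controls.

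Of the 5 processing enzymes, 2 were higher at the unadjusted p (9.95% of all tested genes) and 3 had all treated libraries above all controls (13.4%). *MIPEP*, the matrix peptidase that removes a further octapeptide from some precursors, had 17.6, 25.4 and 20.2 TPM in Amuc_0904 replicates 1 to 3, against 16.3, 16.9 and 16.4 TPM in Control replicates 1 to 3. The groups did not overlap, and the treated libraries spread far more than the controls (SD 3.97 TPM with Amuc_0904 and 0.35 TPM in Control). The difference was 0.31 (SE 0.123, adjusted p = 0.292), and 0.43 without replicate 1 (adjusted p = 0.0295). *IMMP2L*, a subunit of the inner membrane peptidase, had 18.9, 16.7 and 16.1 TPM in Amuc_0904 replicates 1 to 3, against 15.1, 13.9 and 14.3 TPM in Control replicates 1 to 3. Here replicate 1 was the highest library, and the difference of 0.24 (SE 0.0787, adjusted p = 0.258) was 0.17 without it (adjusted p = 0.109). Its partner *IMMP1L* had 27.0, 40.1 and 36.5 TPM in Amuc_0904 replicates 1 to 3, against 29.7, 32.2 and 33.3 TPM in Control replicates 1 to 3. Replicate 1 was the lowest library of *IMMP1L* (difference 0.10, adjusted p = 0.756, and 0.26 without replicate 1, adjusted p = 0.0466).

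The matrix processing peptidase, which removes presequences, had no subunit with an unadjusted p under 0.05. *PMPCA* had 55.5, 55.3 and 53.3 TPM in Amuc_0904 replicates 1 to 3, against 49.8, 51.4 and 53.2 TPM in Control replicates 1 to 3, a difference of 0.09 (adjusted p = 0.438) with the groups just apart. *PMPCB*, the catalytic subunit, had 86.0, 80.2 and 80.2 TPM in Amuc_0904 replicates 1 to 3, against 83.1, 83.9 and 81.3 TPM in Control replicates 1 to 3 (difference −0.01, adjusted p = 0.929).

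Paralogs differed in level, and only the ratios of *TOMM40* to *TOMM40L* and of *MTX2* to *MTX3* had groups without overlap. *TOMM40L*, the low-level paralog of *TOMM40*, had 5.24, 5.0 and 5.22 TPM in Amuc_0904 replicates 1 to 3, against 5.33, 5.01 and 6.04 TPM in Control replicates 1 to 3 (difference −0.07, adjusted p = 0.761). The ratio of *TOMM40* to *TOMM40L* was 17.4, 23.3 and 22.8 in Amuc_0904 replicates 1 to 3, against 16.4, 16.4 and 13.8 in Control replicates 1 to 3. That of *GRPEL1* to *GRPEL2* was 3.58, 4.62 and 4.53 in Amuc_0904 replicates 1 to 3, against 3.50, 3.71 and 3.84 in Control replicates 1 to 3. The groups did not overlap in the *TOMM40* ratio, while replicate 1 lay within the control range of the *GRPEL1* ratio. The ratio of *MTX2* to *MTX3* was 8.18, 9.92 and 10.1 in Amuc_0904 replicates 1 to 3, against 7.74, 8.05 and 7.69 in Control replicates 1 to 3, also without overlap. In *TIMM8B* to *TIMM8A*, *PMPCB* to *PMPCA*, *IMMP1L* to *IMMP2L* and *MTX2* to *MTX1* the ratios of the groups overlapped. *TOMM40L* and *MTX3*, the lower genes of the ratios without overlap, averaged 5.31 and 5.39 TPM over the 6 libraries. The share of other gene pairs whose ratios do not overlap was not computed, so these ratios cannot be set against it. Across the 39 tested genes, Spearman's rho between the mean log2 level and the difference was 0.281, against 0.176 over all tested genes, where the points share the same 6 libraries and genes are not independent.

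To show the sequence around the start sites of import genes with an unadjusted p under 0.05, 6 promoters are printed from the RefSeq annotation of GRCh38.p14, each 250 bases before to 50 bases after the start, 5′ to 3′ on the gene's strand. They were chosen after the matches were seen, 5 because they hold NRF1 or ETS letters and *TIMM17A* because it holds none of the motifs searched. Capitals mark matches, on either strand, to NRF1 (GCGCANGCG) and to the ETS family factor GABPA (CCGGAAG), regulators of nuclear genes for mitochondrial proteins, and to SP1 (GGGGCGG).
PAM16 (chr16:4351272-4351571, minus strand): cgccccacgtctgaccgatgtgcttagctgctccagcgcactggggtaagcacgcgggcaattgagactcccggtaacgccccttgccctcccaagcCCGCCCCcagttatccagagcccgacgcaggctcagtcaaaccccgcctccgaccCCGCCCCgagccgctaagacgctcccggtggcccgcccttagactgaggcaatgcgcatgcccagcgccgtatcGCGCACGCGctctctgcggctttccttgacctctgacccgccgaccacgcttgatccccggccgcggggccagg
TOMM6 (chr6:41787444-41787743, plus strand): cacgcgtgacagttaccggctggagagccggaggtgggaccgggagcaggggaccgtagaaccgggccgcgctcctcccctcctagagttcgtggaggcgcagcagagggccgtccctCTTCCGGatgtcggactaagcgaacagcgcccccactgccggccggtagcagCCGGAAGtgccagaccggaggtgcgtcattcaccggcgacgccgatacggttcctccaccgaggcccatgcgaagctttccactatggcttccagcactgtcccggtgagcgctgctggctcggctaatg
TOMM34 (chr20:44960348-44960647, minus strand): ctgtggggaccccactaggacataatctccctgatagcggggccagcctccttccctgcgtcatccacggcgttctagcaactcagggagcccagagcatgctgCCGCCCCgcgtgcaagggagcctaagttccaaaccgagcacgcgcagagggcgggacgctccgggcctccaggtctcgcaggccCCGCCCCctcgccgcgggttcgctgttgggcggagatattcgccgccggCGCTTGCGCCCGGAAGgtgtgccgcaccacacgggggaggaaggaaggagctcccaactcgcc
TIMM23 (chr10:45972239-45972538, plus strand): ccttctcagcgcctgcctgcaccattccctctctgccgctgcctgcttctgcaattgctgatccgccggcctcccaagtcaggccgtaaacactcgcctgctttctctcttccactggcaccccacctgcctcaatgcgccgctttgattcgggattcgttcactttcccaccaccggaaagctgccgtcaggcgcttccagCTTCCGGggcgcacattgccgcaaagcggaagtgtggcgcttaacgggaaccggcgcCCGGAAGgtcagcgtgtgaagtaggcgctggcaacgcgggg
CHCHD4 (chr3:14124821-14125120, minus strand): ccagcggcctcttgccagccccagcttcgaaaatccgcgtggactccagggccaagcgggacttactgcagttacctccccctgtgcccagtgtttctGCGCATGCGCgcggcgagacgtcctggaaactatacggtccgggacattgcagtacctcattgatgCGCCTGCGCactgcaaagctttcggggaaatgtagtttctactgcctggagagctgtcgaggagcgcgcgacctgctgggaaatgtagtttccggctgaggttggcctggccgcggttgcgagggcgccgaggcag
TIMM17A (chr1:201955253-201955552, plus strand): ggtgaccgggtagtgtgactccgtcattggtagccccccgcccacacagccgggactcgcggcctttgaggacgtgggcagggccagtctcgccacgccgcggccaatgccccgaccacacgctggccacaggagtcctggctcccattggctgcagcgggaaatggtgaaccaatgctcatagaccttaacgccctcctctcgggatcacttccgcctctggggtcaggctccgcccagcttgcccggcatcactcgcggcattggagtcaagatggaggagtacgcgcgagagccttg
*PAM16* has an NRF1 match 24 bases before the start and 2 SP1 matches, *TOMM6* has ETS matches 132 and 80 bases before it, and *TOMM34* has an NRF1 match at 13 and an ETS match at 4 bases before the start. *TIMM23* has an ETS match 48 bases before the start and another after it. *CHCHD4* has NRF1 matches at 152, 151 and 86 bases before the start, of which the leading pair overlap in a palindrome. Each distance is that of the match's leftmost base as printed.

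Promoters were matched for 37 of the 40 import genes, all but *TOMM5*, *TIMM8B* and *GRPEL1*. The NRF1 letters were in 12 of them (32.4%), against 17.2% of the promoters of tested genes and 9.02% of all promoters. The ETS letters were in 17 (45.9%), against 23.0% and 12.2% in the same order. The YY1 letters (AANATGGCG) were in 8 (21.6%), against 8.26% and 3.85%, and none of these 8 belonged to a gene with an unadjusted p under 0.05. The MYC E-box (CACGTG) was in 5 (13.5%), against 12.4% and 8.77%, and the SP1 letters in 16 (43.2%), against 57.3% and 34.4%. Of the 9 matched genes with an unadjusted p under 0.05, 4 held the NRF1 letters and 4 the ETS letters, *IMMP2L* held SP1 letters alone and *TIMM17A* none. A match describes the letters in this window and is not a binding site, and no factor's binding was measured here.

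Genes that work beside the 40 were read from lists of partners, and their counts stand against 9.95% of all tested genes higher and 5.87% lower at the unadjusted p with all libraries, and 9.51% higher and 9.24% lower at the adjusted p without Amuc_0904 replicate 1. Of 18 other import factors, 7 were higher and 0 lower at the unadjusted p, with a median difference of 0.15. Without replicate 1, 9 passed the adjusted p. With median-of-ratios scaling 5 were higher at the unadjusted p and with quantile scaling 5, where 7.08% and 7.64% of all tested genes were higher. *MTCH2*, an insertase of the outer membrane for tail-anchored proteins, was at 133 ± 10.6 TPM with Amuc_0904 and 108 ± 8.78 TPM in Control (difference 0.30, adjusted p = 0.232). *VDAC3*, an outer membrane channel, was at 46.6 ± 6.59 TPM with Amuc_0904 and 36.3 ± 3.0 TPM in Control, with overlapping groups, and *COX18* and *TAMM41*, an insertase and a cardiolipin synthesis enzyme, differed by 0.30 and 0.35 (adjusted p = 0.248 and 0.258). Of 9 genes of MICOS, the scaffold of the cristae junctions, and its partners, all had a higher mean, with a median of 0.13, and 1 was higher at the unadjusted p, *CHCHD3* (difference 0.17, adjusted p = 0.307). Without replicate 1, 4 passed the adjusted p and the median was 0.24. At the unadjusted p, 0 were higher with median-of-ratios scaling and 1 with quantile scaling, where 7.08% and 7.64% of all tested genes were higher. Of 16 cytosolic delivery factors, 4 were higher at the unadjusted p, and the median was 0.00 (0.0048). With median-of-ratios scaling 1 was higher and with quantile scaling 2, where 7.08% and 7.64% of all tested genes were higher. The 4 were the Hsp90 genes *HSP90AA1* and *HSP90AB1*, their co-chaperone *STIP1* and the ubiquilin *UBQLN1*. *HSP90AA1* had 372, 475 and 479 TPM in Amuc_0904 replicates 1 to 3, against 341, 335 and 352 TPM in Control replicates 1 to 3 (difference 0.36, adjusted p = 0.236).

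Of 14 tested genes of import surveillance and matrix quality control, 5 were higher and 0 lower at the unadjusted p, with a median of 0.07. Of all tested genes, 9.95% were higher and 5.87% lower at that p. *HSPE1* and *HSPD1*, the co-chaperonin and chaperonin that fold imported proteins in the matrix, had the largest differences of the 4 genes named from this list. *HSPE1* had 1270.2, 1890.1 and 1854 TPM in Amuc_0904 replicates 1 to 3, against 1154, 1172 and 1198 TPM in Control replicates 1 to 3 (difference 0.49, adjusted p = 0.238, and 0.67 without replicate 1, adjusted p = 1.76e-04). *HSPD1* had 629, 856 and 853 TPM in Amuc_0904 replicates 1 to 3, against 596, 589 and 602 TPM in Control replicates 1 to 3 (difference 0.37, adjusted p = 0.248, and 0.52 without replicate 1, adjusted p = 2.30e-04). Both had all treated libraries above all controls, with replicate 1 next to them. *TRAP1*, the mitochondrial Hsp90, and *AFG3L2*, a matrix-facing protease, differed by 0.36 and 0.18 (adjusted p = 0.238 and 0.232). No gene of these 4 lists passed the adjusted p with all libraries.

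**Figure D5:**
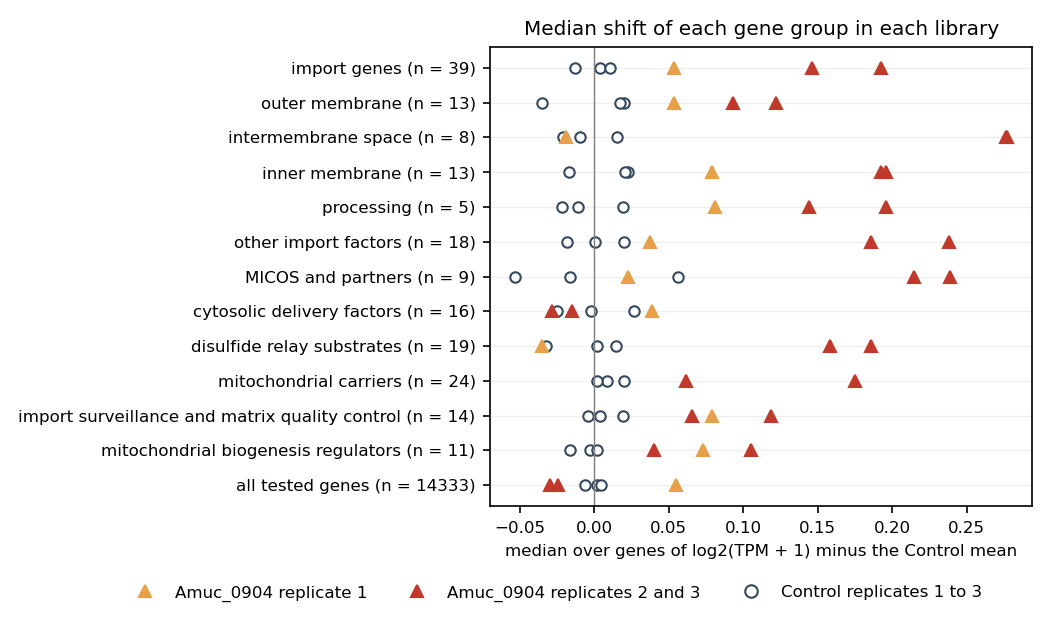
Median over the genes of each group of log2(TPM + 1) minus the mean of the Control libraries, in each library (triangles, Amuc_0904, replicate 1 in orange; circles, Control; n, tested genes). The import genes sit at 0.05, 0.19 and 0.15 in Amuc_0904 replicates 1 to 3, and all tested genes at 0.05, −0.02 and −0.03.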

How the data were processed

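RNA was measured by paired-end sequencing of 3 A904 and 3 Control libraries of HT-29 cells. The authors trimmed reads with SeqPrep and Sickle, aligned them with HISAT2 and assembled transcripts with StringTie, and deposited TPM per gene. The submitters' processing notes also list RSEM and edgeR and a mouse build, while the gene identifiers are human, so the build behind the values and the strand setting of the counting are not given in the sources used here. The table held 63241 genes with TPM summing to 1000000 per library within rounding, and 25 lines of annotation text alone were left out.

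Levels entered the test as log2 of TPM plus a pseudocount of 1, for genes that reached 1 TPM in 3 or more libraries. The test used limma 3.58.1 under R 4.3.3 (trend and robust empirical Bayes, condition only), with Benjamini-Hochberg adjustment over all 14333 genes. The fit was first checked on simulated libraries, all drawn with a spread taken from the Control libraries. None was made to stand apart as Amuc_0904 replicate 1 did, so the check does not cover such data. An exact permutation test of 3 libraries against 3 cannot go below 0.1, so none is given. The members and gene lists were chosen with earlier results of these data known. Values per library are printed for members with an unadjusted p under 0.05, members past the adjusted p in any alternative, the highest and lowest of each compartment and paralogs, and of each other list up to 4 genes with the smallest p. *TOMM7*, *GFER* and *MTX3* were also described because their groups did not overlap, and ratios of levels between members carry no test. Alternatives changed the pseudocount, the filter, the scaling, library weights, a replicate block and the libraries left out. Gene positions and overlaps are from GENCODE 29 on GRCh38, and promoters from RefSeq.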

Additional observations from a re-analysis of the deposited data

How the results depend on the processing

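Under 13 alternative settings and 1 more chosen after the data were seen, which rescaled TPM without transcripts of the mitochondrial genome, the median difference of the import genes stayed positive. Leaving out 1 library gave 0 to 16 import genes higher at the adjusted p and 5 to 20 higher at the unadjusted p. The median difference was 0.11 to 0.17. The count with all treated libraries above the controls was 15 to 24. This count cannot fall when a library is left out, so its lower bound of 15 was fixed in advance. Of all tested genes, 13.4% had all treated libraries above the controls with all libraries and 22.8% without Amuc_0904 replicate 1. Each of the upper bounds came from leaving out Amuc_0904 replicate 1, and 5 genes at the unadjusted p were left without Amuc_0904 replicate 2 or 3, 6 without Control replicate 2 and 7 without Control replicate 1 or 3. Array weights gave 13 at the adjusted and 21 at the unadjusted p. Median-of-ratios and quantile scaling each gave 7 at the unadjusted p, and 6 and 7 without overlap above. Quantile scaling and the rescaling without mitochondrial transcripts each called *TOMM7* lower at the unadjusted p (−0.14 and −0.09), where 0 were called with the TPM as deposited, and the rescaling left 11 higher. Whether the replicate numbers pair the samples is not known. Same-numbered libraries of the groups correlated at 0.046, −0.039 and −0.005 in their deviations, and different-numbered ones at −0.042 to 0.054. Deviations from means of 3 libraries cannot settle the pairing. A fit with the replicate number as a block gave 0 import genes at the adjusted p and 13 higher at the unadjusted p. The share of all tested genes under that fit was not computed, so the 13 cannot be set against it.

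The direction held in every alternative for 31 of the 39 import genes. Over the fits that left out 1 library, *SAMM50* went from −0.0607 to 0.0712, *MTX1* from −0.0048 to 0.0866, *TIMM44* from −0.1016 to 0.0945, *TIMM29* from −0.0085 to 0.1623, *IMMP1L* from −0.0143 to 0.2623 and *PMPCB* from −0.0455 to 0.0046. With quantile scaling *TOMM20* was −0.0177 and *SAMM50* −0.0122, and with the rescaling *SAMM50* was −0.0222 and *TIMM10B* −0.0064. The cause was not tested. Depth is unknown, so the counting error of the genes near 5 TPM cannot be given.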

Other observations

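Proteins that travel through the machinery were also measured. Of 19 substrates of the disulfide relay, 18 had a higher mean with Amuc_0904 and 1 was higher at the unadjusted p, with a median difference of 0.09. That gene was *COA4*, a cytochrome oxidase assembly factor, at 152 ± 12.2 TPM with Amuc_0904 and 136 ± 5.20 TPM in Control (SD, n = 3 each, difference 0.16, adjusted p = 0.315). At the unadjusted p 9.95% of all tested genes were higher and 5.87% lower. Without Amuc_0904 replicate 1, 7 of the 19 passed the adjusted p higher (9.51% of all tested genes), with a median of 0.16. With quantile or median-of-ratios scaling 0 were higher at the unadjusted p, where 7.64% and 7.08% of all tested genes were higher. Amuc_0904 replicate 1 was below every control for 10 of the 19 (16.0% of all tested genes), and replicates 2 and 3 were both above every control for 12 (22.8% of all tested genes). The medians relative to the Control mean were −0.04, 0.19 and 0.16 in Amuc_0904 replicates 1 to 3. *CMC4*, *CMC2* and *COA6*, which share the paired-cysteine fold of such substrates, differed by 0.39, 0.19 and 0.19, with overlapping groups (adjusted p = 0.321, 0.369 and 0.391). Of 24 carriers of the inner membrane, 7 were higher and 0 lower at the unadjusted p, with a median of 0.08. *SLC25A10*, the dicarboxylate carrier, had 29.8, 36.3 and 33.3 TPM in Amuc_0904 replicates 1 to 3, against 27.98, 26.4 and 24.3 TPM in Control replicates 1 to 3 (difference 0.32, adjusted p = 0.234). *SLC25A13*, an aspartate-glutamate carrier, *SLC25A39*, a glutathione carrier, and *SLC25A32*, which carries folate and flavin, differed by 0.21, 0.30 and 0.21, each with all treated libraries above all controls (adjusted p = 0.232, 0.238 and 0.258).

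Of 11 tested regulators of mitochondrial biogenesis, 2 were higher and 0 lower at the unadjusted p, with a median of 0.08. Of all tested genes, 9.95% were higher and 5.87% lower at that p. *MYC*, a transcription factor of growth, had 91.5, 107 and 107 TPM in Amuc_0904 replicates 1 to 3, against 75.7, 81.4 and 76.3 TPM in Control replicates 1 to 3. All treated libraries were above all controls, with a difference of 0.38 (adjusted p = 0.157). *TFAM*, which packages and transcribes mitochondrial DNA, was at 52.6 ± 3.06 TPM with Amuc_0904 and 45.4 ± 0.956 TPM in Control (difference 0.21, adjusted p = 0.238). *TFB2M*, a mitochondrial transcription factor, and *YY1* differed by 0.11 and 0.09 (adjusted p = 0.386 and 0.394). No gene of these lists passed the adjusted p with all libraries.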
